A study of Caenorhabditis elegans with 2 samples.

Results

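The regions described here are the autosomal intronic peaks of the transcription factor CND-1 in Caenorhabditis elegans embryos. They are the peaks of the thresholded list on the 5 autosomes whose summit lay inside the span of a protein-coding transcript but in no coding exon or untranslated region. Left out were summits near a protein-coding transcript start, 500 bp before it to 100 bp after it, and summits within 100 bp of a tRNA, snoRNA, snRNA or ncRNA gene. This rule kept 226 of the 1465 autosomal peaks and of the 1940 nuclear peaks. The thresholded list also held 24 mitochondrial peaks.

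Binding was measured by chromatin immunoprecipitation and sequencing (ChIP-seq) in 2 biological replicates, which form 1 group, so there was no comparison between conditions. The embryos were of mixed sex and mixed stage, were collected by egg bleaching and carry a labelled age of 3 hours. They came from strain OP349, with the allele unc-119(ed3) on chromosome III and the integrated transgene wgIs349, which adds CND-1 fused C-terminally to GFP and FLAG. The sample description names an antibody against GFP, the antibody field reads cnd-1, and the sonicated fragments measured 200 to 800 bp. The promoter that drives the transgene is not given in the sources used here. Whole embryos were used, so binding could not be assigned to a cell type, and a site bound in few cells cannot be told apart from a weak site in many. The control named in the labels was not used here. Peak lists give no read counts, so sequencing depth is unknown. Exact intervals below cover the counting of peaks only, and since neighbouring peaks are not independent, p-values over peaks are too small to an unknown extent.

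CND-1 is the worm member of the NeuroD family of basic helix-loop-helix (bHLH) proteins, which act in neuron precursors, and it is known for a role in the fate of embryonic motor neurons. Proteins of this class bind DNA as dimers, often with a broadly expressed E protein as partner, at the E-box, a site whose letters are CANNTG. NeuroD and its relatives are known to prefer the E-box CAGATG. Introns of worm genes can carry enhancers, which act on the host gene from within its transcribed body.

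The E-boxes of 12 intronic peaks, the strongest on II, III, IV and V that had one, are shown first, since CAGATG was the 1 E-box of 10 that was more frequent at summits than beside them by the test given below. Each line names the gene that holds the peak and gives 30 bases of the RefSeq sequence of assembly WBcel235, the same assembly as ce11, 5′ to 3′ on the strand on which the E-box reads as written. Capitals mark the E-box.
Y111B2A.12: aggtcatagtagCAGATGgtacgtactaaa
mbk-2: tgcaaaagaccaCAGATGgccatgtatttg
trpa-1: gtagtgtcacgaCAGATGgcacttcggtgt
cone-1: aataagagtgagCAGATGgtcacggatcaa
fmi-1: gtcgtctgatgaCAGATGgtcatttggatg
Y57G11C.22: attcgtctaaaaCAGATGccataccaatac
F56A8.3: gcaagaaattgaCAGATGctgtgtgtgtgc
cdh-4: tcaaacagatgaCAGATGgcctatgatttg
cct-5: caacaaaaagtcCAGATGggagaccgtctg
nova-1: ttattcggagagCAGATGgccaaaaagaac
sea-2: cacaatctgtcaCAGATGagggaagtgtat
mig-10: gaattctgatggCAGCTGgcggtgttcagt

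Of these 12, mig-10 was the 1 with another E-box and no CAGATG. The centres of the 12 sites lay from 2.5 to 30.5 bp from the summits. In the sequence from cdh-4 a second copy of the same letters precedes the marked one.

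The intronic peaks were spread over all autosomes, with 61 on III, 56 on I, 45 on II, 37 on IV and 27 on V. Per Mb of intron sequence that the rule could take, this was 12.6 peaks on III, 10.7 on II, 10.2 on I, 7.27 on IV and 5.08 on V. The autosomes together held 9.06 per Mb over 24.9 Mb, and the introns of X held 10.3 per Mb (50 peaks). These densities are given without a test.

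The deposited signal of a peak measures its enrichment on a scale that the sources do not state, and it was used to rank peaks. It ran from 103.2 to 689.5 among the intronic peaks, with a median of 138.2. Autosomal promoter peaks (468) had a median of 149.9 and autosomal intergenic peaks (359) a median of 140.3. Of the intronic peaks 39 (17.3%, 95% exact interval 12.6 to 22.8) were among the strongest 25% of nuclear peaks. The share was 21.8% for promoter peaks and 18.4% for intergenic peaks, and neither difference passed Fisher's exact test (adjusted exact p = 0.381 and 0.825, two-sided). Most intronic peaks, 201 of 226, were 396 bp wide. The other 25 were narrower, down to 99 bp, and had a median signal of 308.6 against 133.7 for the rest.

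Both replicates held nearly all of these sites. The full list of each replicate, 30000 regions long, contained a matching summit (at most 100 bp away) for 219 intronic peaks, and for 212 in both. Signal in replicate 1 ran from 26.9 to 327.8 with a median of 68.5, and in replicate 2 from 19.2 to 375.8 with a median of 77.8. Across the 212 peaks the signals of the replicates had a Spearman correlation of 0.632, a description only, since the thresholded list had been chosen from peaks that ranked alike in both. In 143 of the 212 the value of replicate 2 was the higher, and in 9 the replicates differed by more than a factor of 2.

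**Figure D1:**
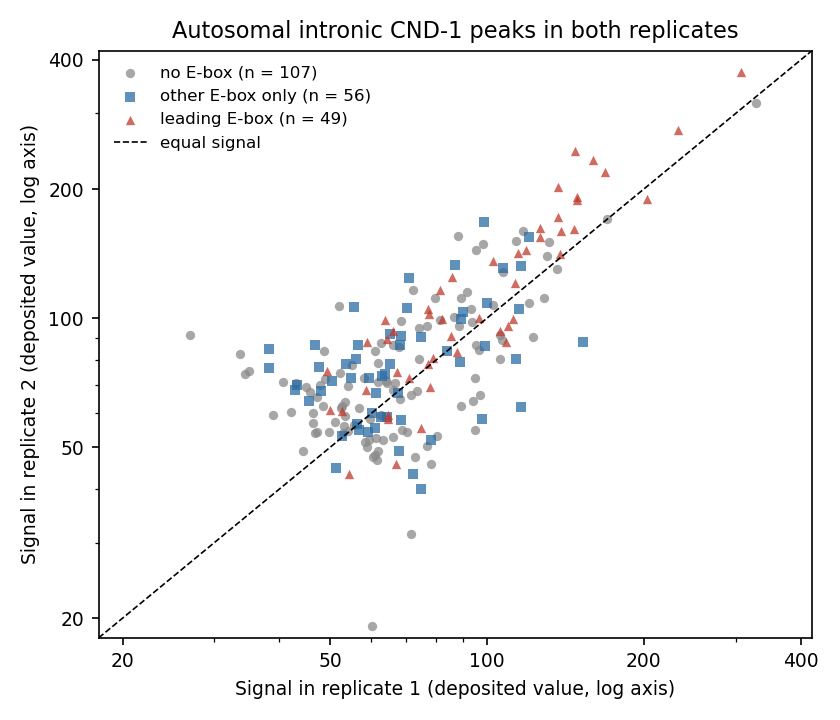
Signal of the 212 autosomal intronic peaks found in the full lists of both replicates, with replicate 1 on the x axis and replicate 2 on the y axis, both on log scales in the deposited unit. Triangles are the 49 peaks with the leading E-box, CAGATG, in the 100 bp around the summit, squares the 56 with other E-boxes only, circles the 107 with none, and the dashed line marks equal signal. Of the 49 triangles 37 lie above that line, as do 69 of the 107 circles.

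By a stricter measure, matching summits were sought among the strongest regions of each replicate, as many as the thresholded list is long. Both replicates had one for 138 intronic peaks (61.1%, with 95% exact limits of 54.4 and 67.5). Another 38 met this in replicate 1 alone, 41 in replicate 2 alone and 9 in neither. Promoter peaks reached 69.4% and intergenic peaks 58.2%, and neither differed from intronic peaks by Fisher's exact test (adjusted exact p = 0.0633 and 0.545). Against promoter peaks the difference of -8.38 percentage points became -9.26 when overlapping peaks were joined and -10.6 when summits had to lie within 50 bp, and it then passed the test (adjusted exact p = 0.0380 and 0.0171). It passed under these 2 of 11 alternatives, and in the strongest 50% of nuclear peaks it was -0.137. Recovery fell with signal, as given below, and the part of signal in this difference was not tested.

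The strongest intronic peak lay in the gene F39B2.3 (I:14788667-14788952, signal 689.5, 306.6 in replicate 1 and 375.8 in replicate 2) and contained CAGATG. Its summit lay in the second of 2 introns, 694 bp from the start of the gene. That intron is 195 bp long, so the peak of 286 bp reached beyond it. The second, in the last intron of M01F1.8 (III:3499908-3500188, signal 647.1, 327.8 and 317.4 in the replicates), contained no E-box in its summit window. Y111B2A.12 held the third (III:12611487-12611734, signal 511.6, 232.4 and 274.4) in an intron of 7076 bp. These 3 peaks had rank 74 or better in replicate 1 and 52 or better in replicate 2.

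Next came a peak in let-526, for an ARID subunit of the SWI/SNF chromatin remodelling complex (I:5313126-5313348, signal 396.5, 159.5 and 234.2 in the replicates). In mbk-2, for a DYRK family kinase that acts at the transition from oocyte to embryo, the peak lay in a first intron of 4290 bp (IV:13029734-13029879, signal 395.3, 147.6 and 245.4). In trpa-1, for a cation channel of the TRPA family, it lay in an intron of 5929 bp (IV:11867720-11867946, signal 391.6, 168.5 and 218.8). All 3 contained CAGATG and were higher in replicate 2 than in replicate 1.

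The peak in fnci-1, the worm homologue of the DNA repair gene FANCI, had the signal 373.5 (203.2 and 189.9 in the replicates). That of unc-104, for a kinesin that carries synaptic vesicle precursors along axons, had the signal 340.9 (II:7001552-7001753, 169.6 and 170.2), and it contained no E-box. Nearly equal to it was the peak in unc-40, for the netrin receptor of the DCC family, with the signal 340.8 (I:5687574-5687788, 136.9 and 202.6). It contained CAGATG.

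Then followed cone-1 (signal 338.4), fmi-1, for a Flamingo cadherin (337.4), Y57G11C.22 (326.9), F56A8.3 (308.6) and cdh-4, for a Fat-like cadherin (301.1), all with CAGATG. The last 6 of the strongest 20 were in K01F9.2 (278.5), ndx-8 (278.2), lsy-22, for a Groucho-related corepressor (275.6), die-1, a zinc finger gene (273.8), mvk-1, for mevalonate kinase (273.4), and cct-5, for a subunit of the CCT chaperonin (269.99). Of the strongest 20, CAGATG was present in 14, 5 had no E-box and 1, that of lsy-22, had another E-box only. All 20 were among these strongest regions of both replicates, at rank 370 or better in replicate 1 and 314 or better in replicate 2, and 18 were higher in replicate 2.

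E-boxes were more frequent at the intronic summits than beside them. At least 1 E-box lay in the 100 bp around the summit in 111 of the 226 peaks (49.1%, 95% exact interval 42.4 to 55.8), against 64 (28.3%) in a 100 bp flank window centred 300 bp to the left (exact McNemar p = 9.45e-06, two-sided). CAGATG was present at 50 summits (22.1%, 95% exact interval 16.9 to 28.1) and in 5 flanks (2.21%), a ratio of 10 (exact McNemar p = 2.14e-09, adjusted over 10 E-boxes). Over 14 alternatives the ratio of CAGATG ran from 4.06 in windows of 200 bp to 25 with the flank on the right, and all 14 passed the test. Taken from the strongest regions of single replicates, the share was 23.3% ± 0.245 at intronic summits and 4.05% ± 0.00387 beside them (SD, n = 2), with ratios of 5.70 in replicate 1 and 5.78 in replicate 2.

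CAGATG was the 1 E-box of 10 that passed this test. CACCTG, at 13 summits and 3 flanks, and CAGCTG, at 10 and 3, had ratios of 4.33 and 3.33 (exact McNemar, adjusted p = 0.106 and 0.308). CACATG, with the same number of G and C bases as CAGATG, was found at 15 summits and 10 flanks (adjusted exact p = 0.719). The counts at summits and flanks were 16 and 11 for CAACTG, 12 and 8 for CAAGTG, and 11 and 6 for CATATG. They were 17 and 18 for CAAATG, 6 and 7 for CAATTG, and 6 and 5 for CACGTG. With the flank on the right alone, the test was also passed by CATATG (adjusted exact p = 0.00488). Of the 226 peaks, 50 had CAGATG, 61 had other E-boxes without it, and the rest had no E-box. Among the 50 with CAGATG, 8 had it at least 2 times and 27 also had another E-box.

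The sites clustered at the summit. In bins of 50 bp, CAGATG was present in 11.5% and 12.8% of the intronic peaks on the left and right of the summit. In the 16 bins at least 100 bp away the share ran from 0 to 4.87%, with a median of 2.21%. The 58 sites in the summit windows lay a median of 17 bp from the summit, and 38 of them lay within 25 bp. The autosomal introns open to the rule held 5771 CAGATG sites, of which these 58 (1.01%) were in a summit window.

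**Figure D2:**
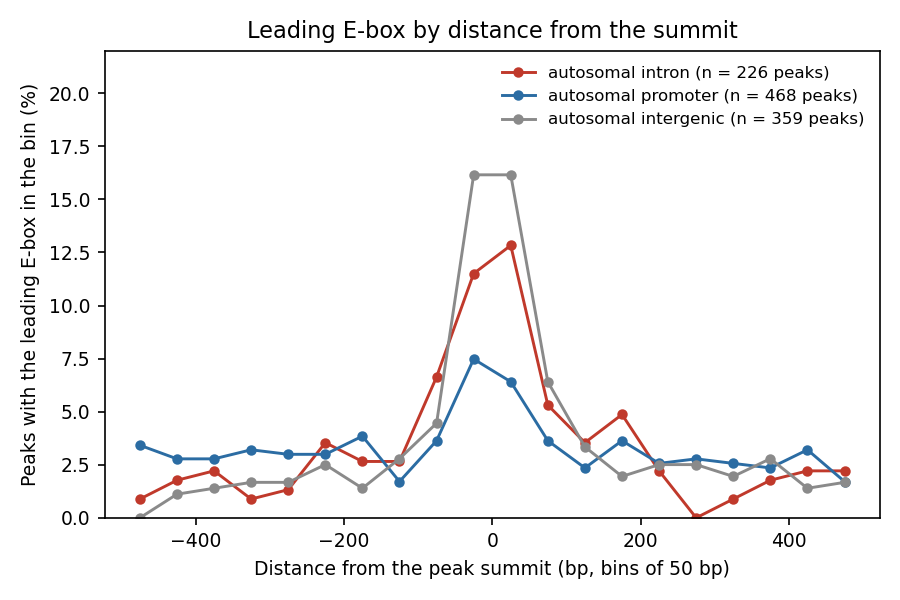
Share of peaks (y axis, %) with the leading E-box, CAGATG, in bins of 50 bp by distance from the summit (x axis, bp), for 226 autosomal intronic, 468 promoter and 359 intergenic peaks. The intronic curve peaks at 11.5% and 12.8% in the 2 central bins and stays at or below 4.87% from 100 bp outwards.

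The bases next to the CAGATG sites in summit windows were compared with those of all CAGATG sites in the introns. Positions are counted outwards from the E-box on the strand on which it reads CAGATG. The base after the site was G at 36 of 58 sites (62.1%, 95% exact interval 48.4 to 74.5), against 18.4% of the 5771 intron sites. The base before it was A at 46.6% against 22.7%, and T at 1.72% against 36.9%. The base 2 before was G at 51.7% against 18.04%, and the base 3 after was C at 46.6% against 15.9%. Of the intron sites followed by G, 3.40% (36 of 1060) were in a summit window, against 0.343% of those followed by A, 0.367% by C and 0.642% by T. At promoter and intergenic summits the base after the site was G at 63.8% and 64.04%, and the base before it was A at 44.9% and 42.98%. The base 2 before was G at 39.1% and 49.1%, and the base 3 after was C at 30.4% and 28.9%, both lower than the intronic 46.6% for C. The 95% exact intervals for that C overlapped, at 33.3 to 60.1 for intronic, 19.9 to 42.7 for promoter and 20.8 to 38.2 for intergenic sites. No test was made of these shares, and the higher G and C content of summits moved with them.

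The summit windows held 48.5% G and C against 37.4% in the flanks, and 14.6% of their bases were marked as repeats against 32.1%. In a scan of all 6-mers, counted on both strands, 55 (2.64%) were higher at intronic summits and 65 (3.12%) were lower, with an adjusted p under 0.05 by the exact McNemar test and a ratio of at least 1.5. Of the 55, 54 had 3 or more G or C bases and 22 contained CG. Of the 65, 52 had at most 1 G or C. Their part in the 6-mer counts was not tested.

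CAGATG had the smallest p of all 6-mers that were higher (exact McNemar, adjusted p = 1.06e-07). Its place by p was 2 with windows of 200 bp, 3 with the flank 500 bp to the left and 1 under the other alternatives. It had the same base content as 179 other 6-mers. Of those 179, 6 were called higher, and their median ratio was 1 with a largest value of 8, that of ACAGGT. The 10 called 6-mers with the largest ratios were rich in G and C. Those with no flank at all were GCGCGC at 16 summits, GGGACA at 15, ACGCAC at 12, CGTGAG at 11, CGCGCG at 10 and GAGCGA at 10. ACGCAG was found at 29 summits and 2 flanks, CACGCA at 16 and 1, CCGACA at 14 and 1, and CGCCCG at 14 and 1. Of these 10, ACGCAG was the 1 that passed under all 14 alternatives, and CGTGAG passed under 4 of them.

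Strong intronic peaks had CAGATG more often than weak ones. It was present at 27 of the 57 strongest (47.4%), 14 of the next 57 (24.6%), 5 of the next 56 (8.93%) and 4 of the 56 weakest (7.14%). The strongest and weakest 25% differed by Fisher's exact test (exact p = 1.53e-06, two-sided), as they did under all 13 alternatives. Any E-box, CAGATG included, was present at 36, 30, 29 and 16 peaks (Fisher's exact p = 0.000311 for the first against the last). Other E-boxes without CAGATG were present at 9, 16, 24 and 12 peaks. These counts leave out all peaks with CAGATG, which were most frequent among the strongest. They therefore cannot show whether other E-boxes fell with signal. G and C content was 49.9% in the strongest 25% and 46.8% in the weakest, and its part in the fall of CAGATG was not tested. Peaks with CAGATG had a median signal of 196.9, those with other E-boxes alone 133.8 and those with none 128.8. In both replicates' strongest regions were 86% of the peaks with CAGATG, 60.7% of those with other E-boxes and 50.4% of those with none. Over all intronic peaks this recovery fell with signal, at 98.2%, 89.5%, 46.4% and 8.93% from the strongest to the weakest 25%. Whether CAGATG went with recovery apart from signal was not tested. Of the 25 narrow peaks 60% had CAGATG, against 17.4% of the 201 of 396 bp.

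Beside the promoter peaks, the intronic peaks had CAGATG more often, at 22.1% against 12.8% (95% exact interval 9.93 to 16.2). This difference of 9.30 percentage points did not pass Fisher's exact test after adjustment over 33 comparisons (exact p = 0.00261, adjusted 0.0769). It passed under 6 of 12 alternatives, among them both replicates alone (10.6 and 9.64 points in the strongest regions of replicates 2 and 1, adjusted exact p = 0.0274 and 0.0487). In the strongest 50% of nuclear peaks it was 18.5 points (adjusted exact p = 0.0144). Intergenic peaks had CAGATG at 29.2% and X intronic peaks at 30%, and neither differed from the autosomal intronic peaks by the test (adjusted exact p = 0.371 and 0.538).

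Any E-box was present at 61.3% of intergenic summits, 12.2 points above the intronic ones, which also missed the threshold (adjusted exact p = 0.0769). In all, 0 of the 33 comparisons passed Fisher's exact test after adjustment, and 4 had an unadjusted exact p under 0.05. In steps of 25% of all nuclear peaks, from strong to weak, CAGATG was present at 51.3%, 27.9%, 14.3% and 7.14% of intronic summits. The shares were 18.6%, 18.3%, 7.09% and 7.41% at promoter summits and 62.1%, 32.6%, 18.8% and 16.2% at intergenic ones. In the strongest 25% the 95% exact intervals were 34.8 to 67.6 for introns and 11.6 to 27.6 for promoters.

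**Figure D3:**
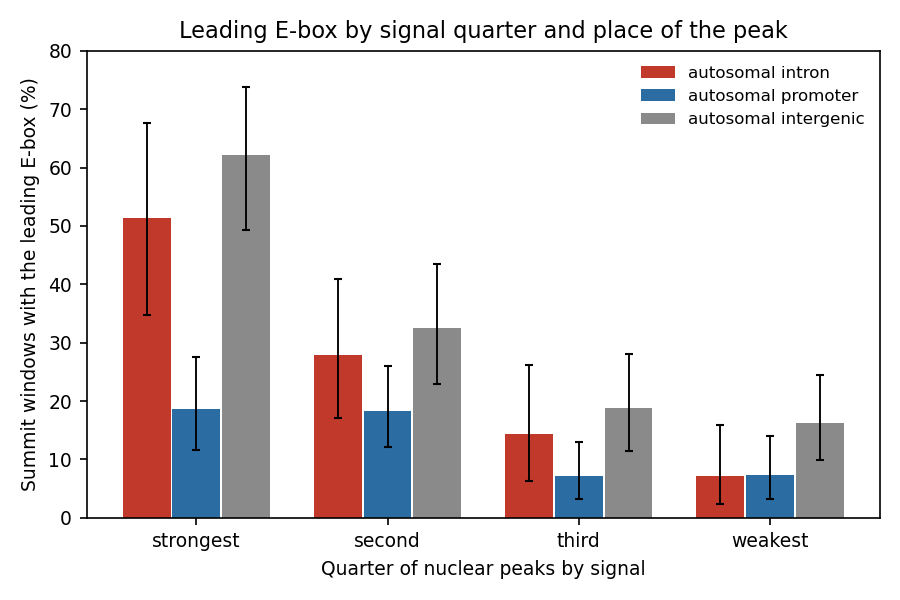
Share of summit windows with the leading E-box, CAGATG (y axis, %), by rank of the peak in steps of 25% of nuclear peaks (x axis), with 95% exact intervals, for autosomal intronic, promoter and intergenic peaks. In the strongest 25%, 51.3% of intronic and 18.6% of promoter summits had the site, and in the weakest 25%, 7.14% and 7.41%.

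Intronic peaks lay in long introns. The introns that held them had a median length of 3571 bp (49 to 19927), while the median base of the intron sequence open to the rule lay in an intron of 939 bp. Introns of over 2000 bp held 150 of the 226 peaks, made up of 71 in the range to 5000 bp, 47 to 10000 bp and 32 above. Those 3 ranges made up 15.8%, 8.40% and 3.80% of the intron sequence. Introns under 500 bp held 23 peaks (10.2%, 95% exact interval 6.56 to 14.9) and 29.3% of the sequence. Position was described without a test.

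**Figure D4:**
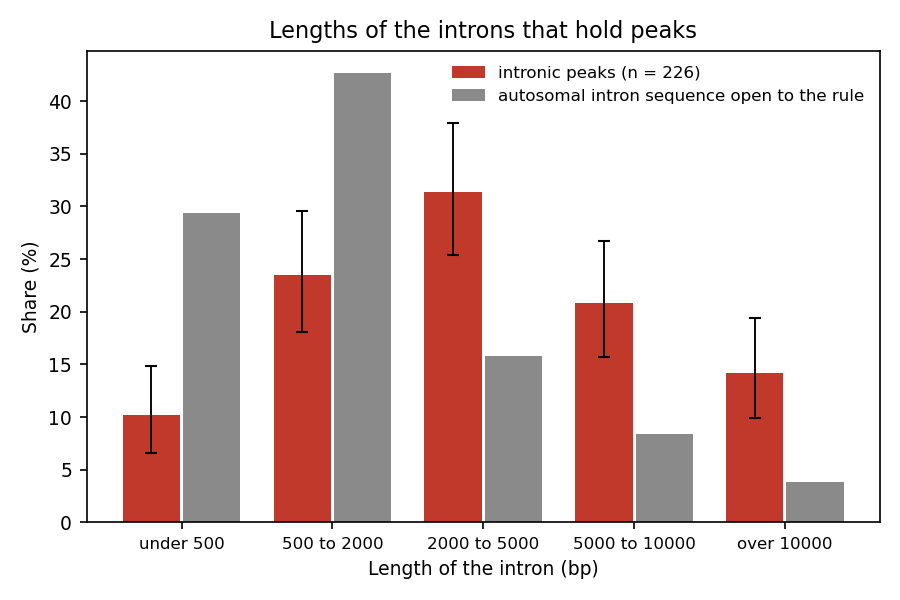
Share of the 226 autosomal intronic peaks, with 95% exact intervals, and share of the autosomal intron sequence open to the rule (y axis, %) by intron length (x axis, bp). Introns over 10000 bp held 14.2% of peaks and 3.80% of the sequence, and those under 500 bp held 10.2% of peaks and 29.3% of the sequence.

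By the transcript with the most exonic sequence, 69 peaks (30.5%, 95% exact interval 24.6 to 37.0) lay in a first intron, which made up 22.8% of the sequence. Counting the first intron of any transcript gave 100 peaks (44.2%) and 30.7% of the sequence. The median summit lay 3830.5 bp from the first start of its host gene and 1725 bp from the nearest protein-coding transcript start of any gene. Of the 226, 118 (52.2%) had a further transcript start of the host gene downstream. In a separate count over all 226, 20 lay within 100 bp of an end of the intron. The nearest start was within 1000 bp for 25.7% of peaks and 35.8% of the sequence.

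At the limits of the rule, 8 members lay within 100 bp outside the promoter window (median signal 122.5) and 7 intron summits lay just inside it (median 123.7). None of either had CAGATG, which allows a share of up to 37.5% and 42.9%. Within 200 bp of a non-coding RNA gene, but beyond 100 bp, were 9 members (median signal 195.7, 2 with CAGATG). The rule left out 135 intron summits within 100 bp of such a gene (median signal 200.5), of which 7.41% had CAGATG. Of the 226 peaks 1 lay within 100 bp of a pseudogene and 1 within 100 bp of a piRNA gene.

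The 226 peaks lay in 161 host genes, which is 0.954% of the 16874 autosomal protein-coding genes with intron sequence open to the rule, and every peak had 1 host. A single peak was found in 118 hosts and 2 peaks in 30. The other 13 hosts held 48 peaks (21.2%). Hosts had a median of 5813 bp of such intron sequence and genes at large 623 bp. Density was higher in genes with more of it, from 2.71 peaks per Mb in genes with under 1000 bp through 5.57 and 10.03 to 15.7 per Mb in genes with over 10000 bp. A peak in a promoter window of their own was found for 22 hosts (13.7%), against 3.87% of genes that were no host. The genes were not matched for intron sequence or for their number of transcript starts, and this difference was not tested.

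The gene with the most intronic peaks was lsy-22, with 6, all in its first intron of 11392 bp and spread over 6476 bp. Their signals ran from 103.9 to 275.6, 4 were in the strongest regions of both replicates, and 2 had CAGATG. zfp-1, the homologue of the leukaemia gene AF10 and a chromatin regulator, held 5 peaks over 6222 bp (124.2 to 260.7), none with CAGATG. Y111B2A.12 also held 5, in 1 intron and over 4580 bp (164.0 to 511.6), each with an E-box and each in the strongest regions of both replicates.

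sea-2, an autosomal signal element of sex determination, held 4 peaks in 1 intron (113.7 to 242.8). For the strongest of them replicate 1 had no matching summit, while it had one for the neighbour 200 bp away. hmr-1, the gene for the classical cadherin of worm junctions, held 4 peaks over 42227 bp (106.7 to 164.3). With 3 peaks each followed mbk-2, fmi-1, lit-1, cam-1, cyd-1, vab-1, flcn-1 and T09B4.5. In mbk-2, sea-2 and zfp-1 the nearest neighbouring summits were 203, 200 and 201 bp apart, and whether such neighbours are separate sites was not tested.

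Host genes were counted in 23 gene lists, chosen with earlier results of these data known. The counts are described beside the 0.954% of all genes and the 9.06 peaks per Mb of all autosomal introns. Over all genes, the share of hosts rose with intron sequence per gene. It was 0.101% under 1000 bp, 0.846% from 1000 to 3000 bp, 3.87% from there to 10000 bp and 13.95% above. Lists were not matched for intron sequence, and its part in their shares was not tested. The list with the highest share was axon guidance and outgrowth, with 12 hosts of 44 genes (27.3%, 95% exact interval 14.96 to 42.8). They held 19 peaks, or 57.1 per Mb of their intron sequence. The signals ran from 103.8 to 340.8 with a median of 120.7, below the median of all intronic peaks, and 10 of the 19 were in the strongest regions of both replicates. The strongest regions of replicate 1 alone gave 11 hosts and those of replicate 2 alone 15, and the strongest 50% of nuclear peaks gave 6.

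Among the axon guidance receptors were unc-40, described above, and cam-1, for a ROR receptor tyrosine kinase, with 3 peaks. The cam-1 signals were 199.1 (II:9308694-9309089), 123.1 and 111.3. The strongest was 79.4 in replicate 1 and 111.6 in replicate 2, and none of the 3 had an E-box. vab-1, for the Eph receptor, also had 3 peaks, the strongest at 174.6 (II:4577406-4577801, 81.3 and 98.9 in the replicates) and the others at 109.9 and 106.5. The ephrin genes vab-2, for a ligand of the VAB-1 receptor (118.9), and efn-4, for a divergent ephrin (120.7), had 1 peak each, and ptp-3, for a receptor phosphatase of the LAR family, had 1 at 103.9.

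fmi-1 had 3 peaks at 337.4, 183.6 and 138.2, all in the strongest regions of both replicates, and the 2 stronger had CAGATG. mig-10, for an adaptor of the lamellipodin family that acts downstream of guidance receptors, had peaks at 240.3 (III:8298253-8298648, 115.999 and 132.5 in the replicates) and 108.7. Single peaks lay in madd-2, for a TRIM family protein that acts with UNC-40 (194.2), unc-33, for a CRMP protein of axons (116.6), madd-4, for a secreted guidance protein (113.0), and zag-1, for a zinc finger homeobox factor of neurons (103.8).

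Of the Wnt pathway 4 of 26 genes were hosts (15.4%, 95% exact interval 4.36 to 34.9), with 8 peaks or 89.4 per Mb. The Frizzled receptor gene lin-17 had 1 peak at 266.2 (I:2710840-2711014, 98.9 in replicate 1 and 167.2 in replicate 2), with CACCTG and CAGCTG but no CAGATG. lit-1, for the Nemo-like kinase, had 3 at 225.2, 157.98 and 103.2. pop-1, for the TCF factor on which lit-1 acts, had 1 at 155.7 with CAGATG, and cam-1 is a member of both lists. Together the Wnt and axon guidance lists had 15 hosts with 24 peaks.

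Of the epithelial junction and polarity genes 5 of 58 were hosts (8.62%, 95% exact interval 2.86 to 18.98), with 9 peaks or 28.3 per Mb. They were cdh-4 at 301.1, hmr-1, the polarity kinase gene par-1 at 133.8 and 114.9, jac-1, for p120 catenin, at 118.6 and nhr-23, a nuclear receptor gene kept in this list, at 108.4. For the stronger par-1 peak replicate 1 had no matching summit. Of the 9 peaks 3 were in the strongest regions of both replicates.

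Chromatin regulators had 6 hosts of 132 (4.55%) with 10 peaks, of which 9 were in the strongest regions of both replicates. Besides let-526 and zfp-1 they were pbrm-1, for polybromo, at 268.1, mdt-26, for a Mediator subunit, at 233.8, lin-9, for a DREAM complex subunit, at 210.4 and egl-27, for an MTA family protein, at 152.1. Both let-526 and pbrm-1 encode subunits of SWI/SNF complexes and had CAGATG at the summit. When the whole peak had to lie in intron sequence open to the rule, chromatin regulators had 4 hosts. Cell cycle genes had 4 hosts of 85 (4.71%) with 7 peaks. cyd-1, for cyclin D, had 3 peaks at 174.6, 148.2 and 137.9, each with an E-box. efl-3, for an E2F family factor, had peaks at 237.2 and 114.8, and the phosphatase gene cdc-25.2 and the inhibitor gene cki-2 had 1 each at 123.1 and 109.7.

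Transcription factor genes were hosts in part. Homeobox genes had 4 hosts of 76 (5.26%). They were unc-30, for a Pitx factor of GABA neurons (164.5, IV:13121298-13121693, 78.8 in replicate 1 and 80.6 in replicate 2, with CAGATG), zfh-2 (121.2), ceh-43, the Distal-less homologue (108.5), and zag-1. Of 128 other transcription factor genes, among them zinc finger, T-box, GATA and ETS factors, 4 were hosts (3.13%), namely die-1, ast-1, for an ETS domain factor (209.2), the GATA factor gene egl-18 (187.9 and 106.3) and egl-27. The count of that list was 7 without replicate 1 and 8 without replicate 2. Nuclear hormone receptors had 2 hosts of 247 (0.810%), nhr-2 (180.6) and nhr-23, and 1 host without replicate 1. The bHLH genes had 0 hosts of 31, which allows a share of up to 9.68% (3 counts of the total), hlh-30 and sbp-1 with the most intron sequence among them.

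Signalling genes of the Ras, insulin, TGF-beta and Notch pathways had 4 hosts of 102 (3.92%). Those of the Notch pathway were sel-8, for Mastermind (209.7 and 117.3), and lag-1, for the CSL factor (137.6), whose products act in the same nuclear complex. The others were sos-1, for the Ras exchange factor (159.4 and 113.1), and daf-5, for a Ski family factor (156.5 and 120.8). Small GTPases and their regulators had 3 hosts of 81 (3.70%), namely sos-1, rin-1 (189.7) and rhgf-3 (2 peaks, the stronger at 111.4).

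Synapse and vesicle release had 1 host of 55 (1.82%), unc-104, and unc-13 and snt-5 were without a peak. Ion channels had 1 of 220 (0.455%), trpa-1, with peaks at 391.6 and 135.1, while kcnl-1 and kcnl-2, with the most intron sequence of the list, had none. The list of transmitter and peptide receptors and G proteins had 1 of 145 (0.690%), goa-1 (104.7), for the Go alpha subunit. Its members pde-3 and gcy-28, which encode neither such receptors nor G proteins, had none. Neuropeptide and insulin genes had 0 of 109, which allows up to 2.75%. Chemoreceptors had 2 of 1201 (0.167%), srt-52 (189.6) and sre-45 (105.8). These small counts moved when 1 replicate was left out: synapse to 2 hosts without replicate 1, ion channels to 2 and chemoreceptors to 1 without replicate 2, and receptors and G proteins to 2 without replicate 1 and also without replicate 2. Without the distance from non-coding RNA genes, ion channels had 5 hosts, receptors and G proteins 3 and synapse 2. When the whole peak had to lie in intron sequence open to the rule, synapse had 0 hosts.

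Among the remaining lists, muscle genes had 1 host of 46 (2.17%), dys-1, for dystrophin (107.6). Actin and microtubule genes had 2 hosts (1.90%), unc-104 and the formin gene frl-1 (164.98). RNA-binding and splicing regulators had 2 hosts (1.72%), larp-1 (194.0) and sfa-1 (183.4), and glia and neuroblast division had 1 of 27 (3.70%), lit-1. Without replicate 2 the counts were 2 for muscle, 1 for actin and microtubules, 4 for RNA-binding and 2 for glia, and without replicate 1 glia also had 2. Without the distance from non-coding RNA genes, actin and microtubule genes had 7 hosts and muscle genes 3. With peaks wholly in intron sequence, RNA-binding and splicing regulators had 1 host. Extracellular matrix had 0 of 31, cuticle collagens 0 of 144 and ribosomal proteins 0 of 67, which allows shares of up to 9.68%, 2.08% and 4.48%. Collagen and ribosomal protein genes had 0.0486 and 0.00857 Mb of intron sequence in all, the least of all lists. In all, 52 hosts were in at least 1 list and 109 were in none.

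**Figure D5:**
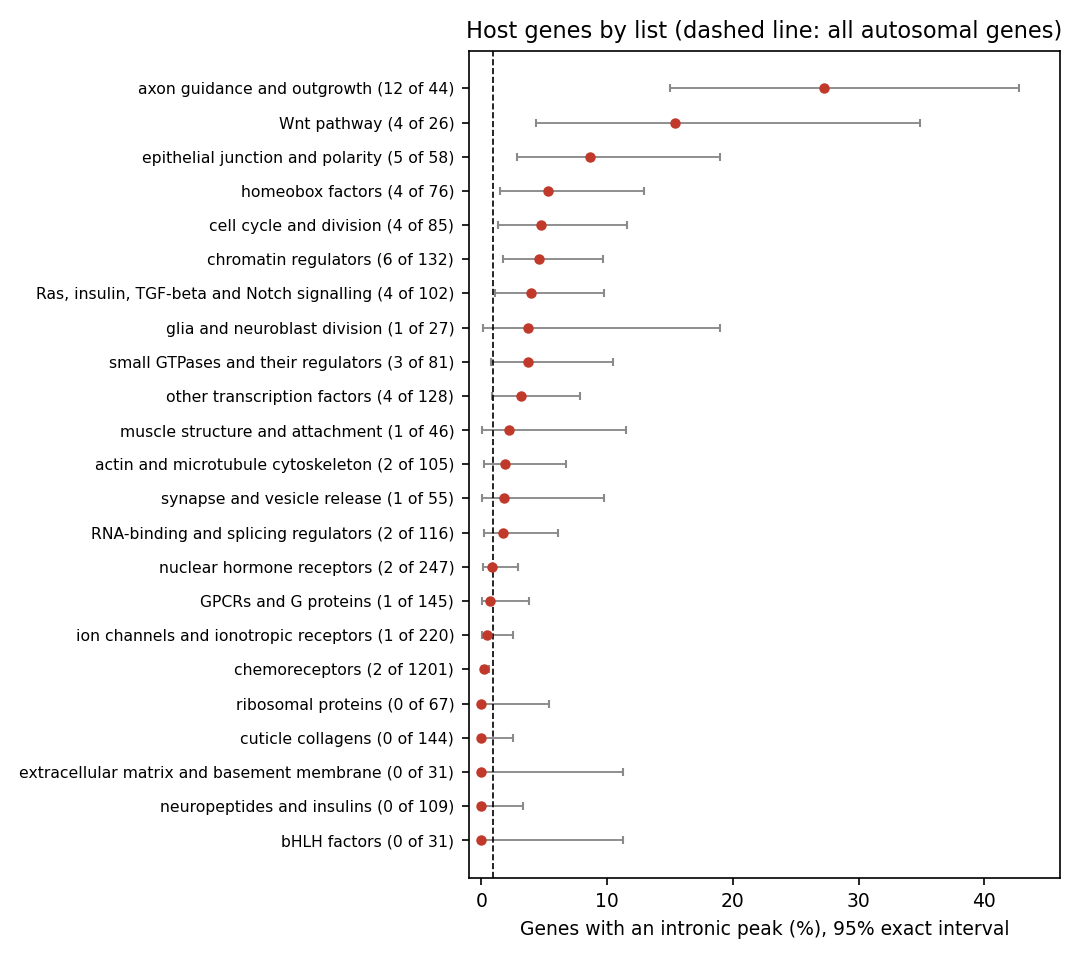
Share of genes with an intronic peak (x axis, %) for each of the 23 gene lists (y axis, hosts of genes with intron sequence open to the rule in brackets), with two-sided 95% exact intervals, which reach higher than the 3-count limits given for lists at 0; the dashed line marks 0.954%, the share of all autosomal genes. Axon guidance and outgrowth (27.3%) and the Wnt pathway (15.4%) lie farthest to the right. The dashed line takes no account of the intron sequence per gene, with which the share of hosts rose.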

How the data were processed

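The authors deposited peak lists on ce11 for 2 replicates of 1 group, for their pool, and a thresholded list made from these, per the labels and the file headers. Each peak carries the deposited signal of the peak caller and a deposited −log10 q-value; the signal ranked peaks, and the q-value was not used because most thresholded peaks share its maximum. No source used here names the aligner, the peak caller or its limits. The list called on pooled reads was not used.

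Summits were placed with the Ensembl 115 annotation of WBcel235, and sequence came from the RefSeq genome of the same assembly. Windows of 100 bp at summits were compared with flanks centred 300 bp to the left by the exact McNemar test, and classes of peak by Fisher's exact test, both two-sided, with Benjamini-Hochberg adjustment and a threshold of 0.05. Intervals are exact Clopper-Pearson. Limits for a count of 0 rest on 3 counts. Thresholded peaks had been selected from the replicate lists, so their recovery there is not independent.

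The members and lists were chosen with earlier results of these data known. After the gene symbols were seen, 2 list entries were corrected (a chemoreceptor pattern dropped, a signalling pattern replaced by named genes), and 12 entries matched no gene. Genes named are the hosts of the 20 strongest peaks, hosts of 3 or more peaks, up to 4 hosts a list with the strongest peaks and, for lists with 3 or fewer hosts, up to 2 members without a peak. Sequences are those of the strongest peaks with an E-box, chromosome I left out. The further hosts of the axon guidance, epithelial and chromatin lists were named after their values were seen. Scripts used Python 3.11.15, NumPy 2.4.6, pandas 2.3.3, SciPy 1.17.1 and matplotlib 3.10.9, and the tests were tested on simulated data.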

Additional observations from a re-analysis of the deposited data

How the results depend on the processing

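The excess of CAGATG at intronic summits and its fall from the strongest to the weakest 25% passed their tests under every alternative run. Some differences between classes of peak passed under a part of the alternatives. These were recovery against promoters, CAGATG against promoters and intergenic peaks, and any E-box against intergenic peaks. The other class differences in recovery, share of strong peaks, any E-box and CAGATG passed under none. Differences are intronic minus the other class, or summit minus flank, in percentage points. In the strongest 50% of nuclear peaks there were 100 peaks in 81 hosts, with 9 6-mers higher and 24 lower, recovery against intergenic peaks was -1.37, any E-box was 0.485 against promoters and 0.130 against X introns, CAGATG was 18.5 against promoters (1 of 33 comparisons passed), and against flanks CAAATG was 6.0, the value of CAATTG was 1.0 and that of CACATG was -1.0. With either replicate left out, any E-box against promoters ran from 0.869 to 2.14, CAGATG against promoters from 9.64 to 10.6 (1 of 33 passed in each), the strongest 25% against intergenic peaks from -0.662 to 0.853, and CAAATG against flanks from 0 to 1.21. The wide promoter window gave 0.0732 for the strongest 25% against intergenic peaks, 1.81 for any E-box against promoters and 35 higher 6-mers. Without the distance from non-coding RNA genes there were 361 peaks in 268 hosts, a median intron of 2071 bp, 167 higher and 152 lower 6-mers, 3.41 and 4.51 for the strongest 25% against promoter and intergenic peaks, -0.554 for CACGTG, and, with 3 of 33 passing, -14.1 for any E-box and -8.22 for CAGATG against intergenic peaks. A distance of 500 bp and the peak midpoint gave -14.5 and -13.6 for any E-box against intergenic peaks (1 of 33 passed in each). Peaks wholly in introns gave 2.04 for any E-box against promoters, 26 higher and 43 lower 6-mers and a median intron of 4449 bp. Joined peaks gave -9.26 for recovery and 9.94 for CAGATG against promoters (1 of 33 passed), and summits shared within 50 bp gave -10.6 for recovery. The strongest 50% as the limit for a strong peak gave 1.91 against intergenic peaks. Windows of 50 bp gave 2.00 for any E-box and 8.42 for CAGATG against promoters (1 of 33 passed) with 12 higher and 22 lower 6-mers. Windows of 200 bp gave 12.6 for CAGATG against promoters (2 of 33 passed), -1.33 for CAACTG, 0.885 for CAATTG and 89 higher 6-mers. The right flank gave 1.33 for CAAATG, -1.33 for CAAGTG and -0.442 for CACGTG, and the flank at 500 bp gave 2.21 for CAAATG. Counting the first intron of any transcript gave 44.2%. The cause of these shifts was not tested. Among the 10 6-mers named, 61 values lost the threshold with their direction kept. No paired comparison of conditions was possible because both replicates belong to 1 group. Unknown depth limits what a missing peak shows.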
